A study of Mus musculus with 6 samples.

Results

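The genes described here are 10 genes that mark basal cells or build the contractile apparatus of smooth muscle and myoepithelium: Trp63, Acta2, Tagln, Cnn1, Cnn2, Myl9, Mylk, Tpm1, Tpm2 and Myh11. They were chosen by name, and all 10 were found among the 23449 genes of the deposited count table. RNA sequencing was done on 6 cell lines from the mammary tissue of female mice (strain FVB/N), 3 with the genotype EIC/WT and 3 with the genotype 16IC/WT. All 6 lines, controls included, were kept in doxycycline at 10 ug/mL, and none was grown without it. On background from the study, and not from the sample labels, doxycycline drives wild-type ErbB2 (HER2) in EIC and the HER2 splice form without exon 16 in 16IC, so that a difference between groups compares lines with either receptor form. The lines EIC 1 to 3 carry the titles EIC_4026, EIC_NT and EIC_7559, and 16IC 1 to 3 carry 16IC_1984, 16IC_4982 and 16IC_7391. The sources used here do not explain NT, nor do they tie each line to an animal. The p-values therefore measure only the spread between these 6 samples, which may be technical.

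The mammary duct has an inner luminal and an outer basal layer. Basal myoepithelial cells contract under oxytocin and push milk along the ducts. They are kept basal by the transcription factor p63, encoded by Trp63, and they carry smooth muscle forms of actin, myosin and their partners. Contraction starts when myosin light chain kinase (Mylk) phosphorylates the regulatory light chain (Myl9) of a smooth muscle myosin (Myh11), which then pulls on filaments of smooth muscle actin (Acta2). Transgelin (Tagln), calponins (Cnn1, Cnn2) and tropomyosins (Tpm1, Tpm2) bind along those filaments. Serum response factor with myocardin-family partners drives most of these genes through a DNA element called the CArG box, a run of A or T between CC and GG.

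Promoter windows of 300 bases, from 250 before to 50 after the gene start, were taken from RefSeq on GRCm38.p6 and searched on both strands for the CArG box. Windows were found for 7 of the 10 genes, and Tagln, Myh11 and Trp63 had none. An exact CArG box was found in the windows of Cnn2 and Myl9, and in 1.63% of all 32851 windows. The windows of Acta2, Cnn1, Mylk, Tpm1 and Tpm2 did not hold an exact box. Near matches were not counted, such as ccctatatgg and ccttgtttgg in the Acta2 window, and sites elsewhere were not searched. The search thus says nothing of whether serum response factor binds at these genes. The Cnn2 window, chr10:79988350-79988649, plus strand, has the box 56 bases before the gene start. The Myl9 window, chr2:156775214-156775513, plus strand, has it 161 bases before. They are shown because these genes lay far apart in level, as given further on, with Cnn2 the highest of the 10 by median FPKM. Capitals mark the CArG box.
Cnn2: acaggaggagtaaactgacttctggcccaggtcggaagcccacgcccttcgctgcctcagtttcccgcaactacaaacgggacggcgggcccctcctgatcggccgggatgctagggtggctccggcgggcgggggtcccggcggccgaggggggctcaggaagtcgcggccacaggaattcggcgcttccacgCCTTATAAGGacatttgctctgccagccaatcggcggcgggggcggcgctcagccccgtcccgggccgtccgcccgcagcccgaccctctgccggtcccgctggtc
Myl9: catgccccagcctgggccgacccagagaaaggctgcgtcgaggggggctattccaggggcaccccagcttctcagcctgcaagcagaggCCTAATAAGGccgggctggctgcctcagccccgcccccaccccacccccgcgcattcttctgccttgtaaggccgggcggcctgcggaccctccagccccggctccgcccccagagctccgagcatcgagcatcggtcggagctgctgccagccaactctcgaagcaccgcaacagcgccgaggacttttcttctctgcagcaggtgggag

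Library totals ran from 15621563 to 17468498 counts. Levels are given as CPM (the count scaled to a common library size by TMM), and comparisons between genes as the deposited FPKM, which also divides by gene length. Some lines stood apart. Over the 13698 tested genes, 16IC 1 and 16IC 2 had a Spearman correlation of 0.989, and 16IC 3 reached 0.874 and 0.880 with them, within the range of 0.841 to 0.885 for pairs across groups. EIC 2 reached 0.925 and 0.917 with EIC 1 and EIC 3, which reached 0.979 with each other. Mitochondrial genes took 0.926 to 1.50% of counts in EIC and 1.997 to 3.39% in 16IC, and their part in the results was not tested. In these bulk samples, fewer cells of a type and less RNA per cell cannot be told apart.

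The 4 genes Acta2, Cnn1, Myh11 and Myl9 were at or near 0 in both groups, while Cnn2 and Tpm1, which also serve the general cytoskeleton, were abundant. These 4 genes had 32 counts in all among the 98861456 counts of the 6 libraries, and none exceeded 5 counts in a line. By median FPKM, Cnn2 (79.6, range 33.6 to 150.2) and Tpm1 (53.6, range 38.5 to 83.0) came first, with ranges that overlapped. Next came Tpm2 (2.93, range 0.222 to 9.71), wholly below Tpm1, and then Mylk (0.666, range 0.0472 to 1.51) and Tagln (0.255, range 0.0834 to 0.455). Myl9, Cnn1, Myh11, Trp63 and Acta2 had medians of at most 0.0522 FPKM, and from Tpm2 downward the range of each gene overlapped that of the next.

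**Figure D1:**
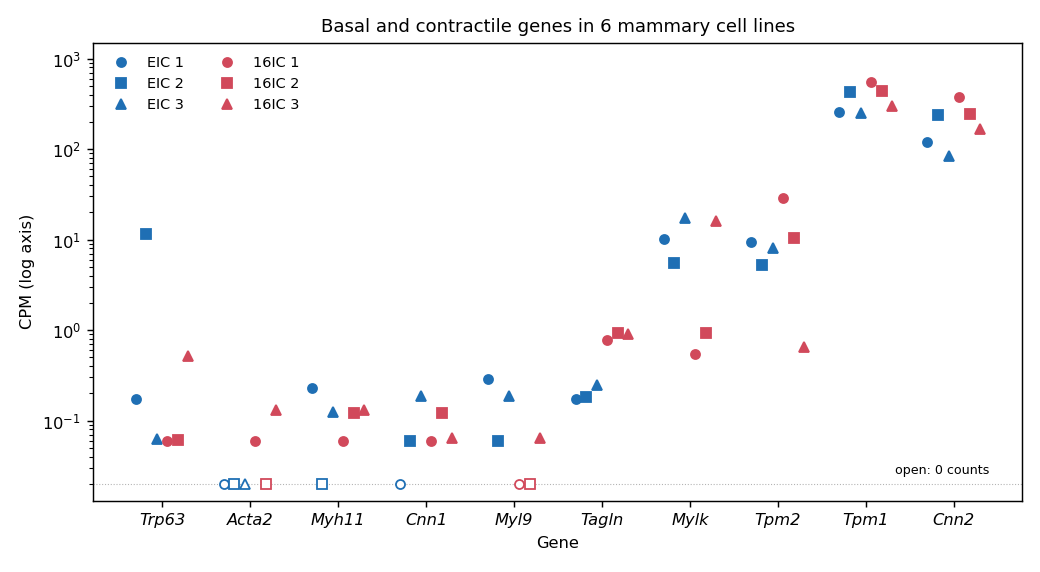
Level of each of the 10 genes in each line, in CPM on a log axis, with EIC lines in blue and 16IC lines in red, and open symbols at the dotted line for 0 counts. Cnn2 and Tpm1 lie above 80 CPM in every line, Acta2, Myh11, Cnn1 and Myl9 lie below 0.3 CPM, and Trp63 reaches 11.5 CPM in EIC 2 alone.

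Of the 10 genes 5 passed the filter on low counts (Tagln, Cnn2, Mylk, Tpm1 and Tpm2) and could be tested between the groups. With edgeR's quasi-likelihood test and Benjamini-Hochberg adjustment over all genes, 0 of these 5 were called at an adjusted p under 0.05, where 2.45% of all 13698 tested genes were called. At an unadjusted p under 0.05 the count was 1, Tagln, against 22.7% of all tested genes. Limma-voom and DESeq2 also called 0 of the 5, against 2.10% and 15.3% of all tested genes. The groups did not overlap in 1 of the 5, again Tagln, against 31.4% of all tested genes. The 5 had a median log2 fold change of 0.82, 16IC over EIC, beside -0.0044 over all tested genes. Tagln passed the filter through the 16IC lines alone, so these counts and this median describe the tested genes and support nothing further.

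Trp63 (ENSMUSG00000022510, chromosome 16, 25683763 to 25892102 on mm10) was expressed in 1 line. It had 3, 191 and 1 counts in EIC 1 to 3 and 1, 1 and 8 counts in 16IC 1 to 3. In CPM this was 11.5 in EIC 2, 0.519 in 16IC 3 and at most 0.171 in the other 4 lines. Thus 191 of the 205 counts came from EIC 2, the line titled NT, and the 2 groups overlapped. Its counts in the other lines were too low to pass the filter, so it was not tested, and the authors' deposited table gives it a log2 fold change of -4.23 with no p-value. Without EIC 2 the 5 remaining lines had 14 counts. The counts do not separate the long and short p63 forms.

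Genes that p63 is known to control in stratified and mammary basal epithelium were looked at as a list. Of 16 such genes fixed for this report 13 were tested, and 0 were called in either direction by edgeR and 5 had an unadjusted p under 0.05. The median log2 fold change was 1.52 and the groups did not overlap in 7. Over all tested genes 22.7% had such a p and 31.4% did not overlap. The highest line was EIC 2 for 1 of the 13, against 21.5% of all tested genes. That gene was Jag2, a Notch ligand of basal cells, named after its values were seen, with 112 CPM in EIC 2 and 1.25 to 4.61 CPM in the other 5 lines. Its log2 fold change of -3.60 (SE 1.63) was not called by edgeR (adjusted p = 0.255), and without EIC 2 it was 0.26. Lamb3, a laminin-332 chain also chosen after its values were seen, had 285 CPM in EIC 2 against 10.7 and 15.1 CPM in EIC 1 and EIC 3, but 190 to 393 CPM in 16IC. Other genes of the list, chosen in the same way, went in the opposite direction among the EIC lines. Cldn1 had 0.180 CPM in EIC 2 against 30.7 and 17.7 CPM in EIC 1 and EIC 3. Itga3, Dst and Perp were also lower in EIC 2 than in EIC 1 and EIC 3. Fermt1, the adhesion protein kindlin-1, had 0 counts in the EIC lines and 159.6, 166.3 and 2.85 CPM in 16IC 1 to 3. It thus passed the filter on low counts through the 16IC lines alone. Over the 6 lines the log2 levels most like those of Trp63 were 1700123O20Rik, Mettl8 and Pip4p1 (Pearson r = 0.997, 0.997 and 0.994). With 1 high line, that line sets these values.

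Acta2 (ENSMUSG00000035783, chromosome 19, 34241090 to 34255336) encodes smooth muscle actin, the usual marker of myoepithelial cells. It had 0 counts in all EIC lines and 1, 0 and 2 counts in 16IC 1 to 3. A count of 0 over the EIC lines allows up to 0.0597 CPM, and 3 counts over the 16IC lines are at the same limit of 3 counts, so no fold is given. With so few counts no gene can be named as most like it. Actg2, the enteric smooth muscle actin, had at most 0.166 FPKM in a line. The cytoskeletal actins Actb and Actg1 had 676 to 1146 and 211 to 725 FPKM, so that Acta2 made at most 0.00817% of the FPKM of these 4 actin genes.

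Tagln (ENSMUSG00000032085, chromosome 9, 45929619 to 45936058) encodes transgelin, also called SM22, an early marker of smooth muscle. It had 3, 3 and 4 counts in EIC 1 to 3 and 13, 15 and 14 counts in 16IC 1 to 3. In CPM these were 0.171, 0.180 and 0.249 against 0.783, 0.918 and 0.908. Every 16IC line lay above every EIC line, with little spread within a group. The log2 fold change was 2.08 (SE 0.44, 95% interval 1.01 to 3.15), with an edgeR adjusted p of 0.0674, so it was not called. The ratio of summed counts, 42 to 10, was 4.36 after scaling, with an exact 95% binomial counting interval of 2.15 to 9.75. The authors' deposited table gives an adjusted p of 0.0776, and by its adjusted p 0 of the 10 genes pass 0.05. The share was 8.74% of all genes with a p-value there, which leaves out Trp63. Exons of Tagln overlap, on the opposite strand in GENCODE vM21, those of Pcsk7 and of the antisense gene Gm48529, with the longest shared exon stretches at 108 and 645 bases. Gm48529 had 22, 17 and 7 counts in the EIC lines and 29, 19 and 26 counts in the 16IC lines. Pcsk7 had 674, 1154 and 522 counts in EIC and 959, 932 and 1332 in 16IC. No source used here says whether the counting used strand, so reads of these genes cannot be told apart from Tagln where they overlap. The paralog Tagln2, a general actin-bundling protein, had 122 to 212 FPKM and made at least 99.6% of the FPKM of the pair in every line.

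The calponins bind actin and restrain the myosin motor. Cnn1 (ENSMUSG00000001349, chromosome 9, 22099216 to 22109630), the smooth muscle form, had 0, 1 and 3 counts in EIC 1 to 3 and 1, 2 and 1 counts in 16IC 1 to 3, or 4 in each group. Cnn2 (ENSMUSG00000004665, chromosome 10, 79988584 to 79996062), a form of many non-muscle cells, had 118, 239 and 83.2 CPM in EIC 1 to 3 and 377, 246 and 167 CPM in 16IC 1 to 3. The groups overlapped, since EIC 2 lay above 16IC 3. The means were 147 ± 81.8 CPM in EIC and 263 ± 106 CPM in 16IC (SD, n = 3). The log2 fold change was 0.84 (SE 0.48, 95% interval -0.31 to 1.997), which edgeR did not call (adjusted p = 0.351). Cnn3, the third calponin, had 241, 311 and 238 CPM in EIC and 402, 383 and 506 CPM in 16IC, groups that did not overlap (log2 fold change 0.71, edgeR adjusted p = 0.122). Cnn2 made 28.9 to 53.6% of the FPKM of the calponin genes, Cnn3 nearly all of the rest, and Cnn1 at most 0.0608%.

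The tropomyosins lie along actin filaments and gate access of myosin. Tpm1 (ENSMUSG00000032366, chromosome 9, 67022590 to 67049406) gives muscle and non-muscle forms by splicing, which gene counts do not separate. It had 257, 424 and 252 CPM in EIC 1 to 3 and 548, 440.1 and 296.5 CPM in 16IC 1 to 3, with EIC 2 above 16IC 3. From high to low, the 6 lines stood in the same order for Tpm1 as for Cnn2. The log2 fold change was 0.46 (SE 0.33, 95% interval -0.33 to 1.25), which edgeR did not call (adjusted p = 0.456). As a share of the FPKM of the 4 tropomyosin genes, Tpm1 held 13.9 ± 0.474% in EIC and 17.6 ± 0.329% in 16IC (SD, n = 3). These shares did not overlap, with 13.5 to 14.4% against 17.3 to 17.9%. The exact two-sided permutation p was 0.1, the smallest that 3 against 3 lines can give, and 0.4 after Benjamini-Hochberg adjustment over the 8 family shares compared, a comparison added after the values were seen. The other share whose groups did not overlap was that of Tagln, at 0.0404 to 0.0820% in EIC and 0.194 to 0.371% in 16IC, with the same exact permutation p.

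Tpm2 (ENSMUSG00000028464, chromosome 4, 43514711 to 43523765) encodes beta-tropomyosin. It had 9.30, 5.23 and 8.08 CPM in EIC 1 to 3 and 28.8, 10.4 and 0.649 CPM in 16IC 1 to 3. The 16IC lines thus spanned the EIC lines on both sides, with 16IC 1 at 44.4 times 16IC 3, while the EIC lines differed by 1.78 times. The log2 fold change was 0.82 (SE 1.08, 95% interval -1.80 to 3.43), which edgeR did not call (adjusted p = 0.704). It turned negative without 16IC 1 (-0.44) and in limma-voom (-0.28). Tpm2 made 2.07% of tropomyosin FPKM in 16IC 1 and 0.0873% in 16IC 3. Tpm3 and Tpm4, the main non-muscle forms here, had 70.8 to 101 and 138 to 279.7 FPKM.

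**Figure D2:**
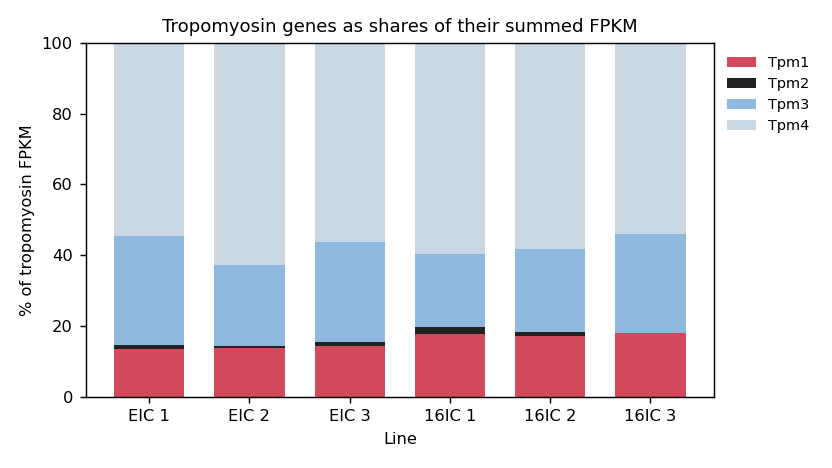
Share of each tropomyosin gene in the summed FPKM of the 4 genes, in percent, with 1 stacked bar for each line. The red part, Tpm1, is 13.5 to 14.4% in the EIC lines and 17.3 to 17.9% in the 16IC lines, and the black part, Tpm2, is too thin to see in 16IC 3 (0.0873%).

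The genes of the smooth muscle motor had few counts in every line. Myh11 (ENSMUSG00000018830, chromosome 16, 14194535 to 14291372), the smooth muscle myosin heavy chain, had 4, 0 and 2 counts in EIC 1 to 3 and 1, 2 and 2 counts in 16IC 1 to 3. Myl9 (ENSMUSG00000067818, chromosome 2, 156775420 to 156781658), its regulatory light chain, had 5, 1 and 3 counts in EIC and 0, 0 and 1 counts in 16IC. For Myl9 the ratio of summed counts, 9 in EIC to 1 in 16IC, was 8.66, with an exact 95% binomial counting interval of 1.20 to 380. That interval covers counting error only and not the spread between lines. In the fit with no filter on low counts, edgeR did not call Myl9 (adjusted p = 0.371). EIC 2 and 16IC 3 both had 1 count, so the groups met. No source used here says how reads that fit both Myl9 and its near-identical paralogs were counted. The levels of Myl9 and these paralogs are therefore uncertain. Myl12a and Myl12b, the non-muscle regulatory light chains, had 24.8 to 47.0 and 1.003 to 1.91 FPKM.

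The non-muscle heavy chains filled that family. Myh9 had 116 to 200.2 FPKM and made 66.2 to 99.97% of the heavy chain FPKM, while Myh11 made at most 0.0217%. Myh10 had 0.661, 0.0109 and 0.0946 FPKM in EIC 1 to 3 and 24.9, 17.5 and 7.51 FPKM in 16IC 1 to 3. Myh14 had 1.35, 0.0234 and 0.663 FPKM in EIC and 60.7, 59.7 and 11.9 FPKM in 16IC. For both, every 16IC line lay above every EIC line. Their log2 fold changes were 6.003 (SE 1.36) and 6.01 (SE 1.38), which edgeR did not call (adjusted p = 0.0748 and 0.0772). Without 16IC 3 it called both (adjusted p = 0.0387 and 0.0324), among 1913 of all 14262 tested genes. Of the 12 tested paralogs on the list of non-muscle forms 0 were called by edgeR and 3 had an unadjusted p under 0.05, against 2.45% and 22.7% of all tested genes, and the median log2 fold change was 0.21.

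**Figure D3:**
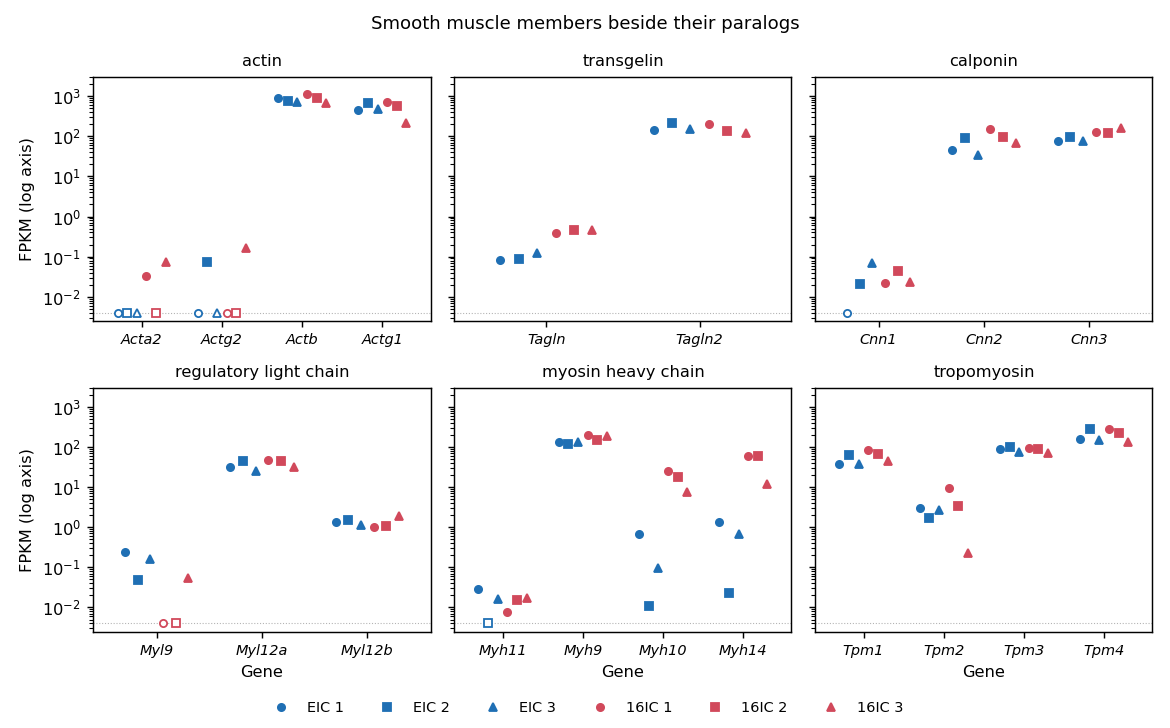
FPKM of the smooth muscle genes and their paralogs in 6 gene families, on a log axis, with 1 point for each line and open symbols at the dotted line for a value of 0. Acta2, Tagln, Cnn1, Myl9 and Myh11 lie below 0.5 FPKM in every line, and each family has at least 1 other gene above 20 FPKM in every line.

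Mylk (ENSMUSG00000022836, chromosome 16, 34745210 to 35002420) encodes myosin light chain kinase, and its short forms also act in non-muscle cells. It had 10.2, 5.47 and 17.2 CPM in EIC 1 to 3 and 0.542, 0.918 and 16.1 CPM in 16IC 1 to 3. The lines 16IC 1 and 16IC 2 lay below all EIC lines, and 16IC 3 lay among them at 29.7 times 16IC 1. Over all 6 lines the log2 fold change was -0.90 (SE 1.26, 95% interval -3.96 to 2.15), which edgeR did not call (adjusted p = 0.721). Without 16IC 3 it was -3.89 (SE 0.67) and edgeR called it (adjusted p = 0.0258), with the 2 remaining 16IC lines being the most alike pair of the study. In that fit edgeR called 1913 of all 14262 tested genes. Mylk and Tpm2 thus differed between the same lines in opposite directions, with 16IC 3 high in Mylk and low in Tpm2. The antisense genes that overlap Mylk exons had at most 4 counts in a line.

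**Figure D4:**
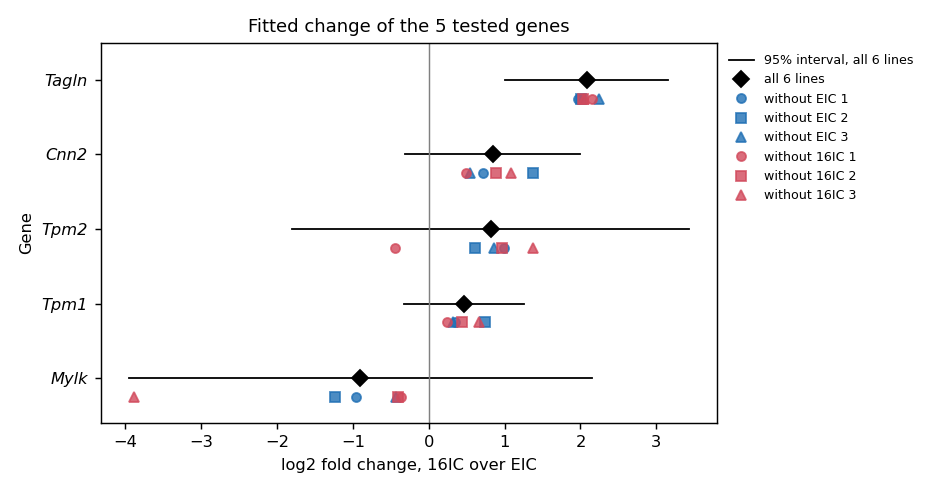
Fitted log2 fold change, 16IC over EIC, of the 5 tested genes, with a black diamond and bar for the value and 95% interval over all 6 lines, and coloured points for the value without each line. The value of Mylk moves from -0.90 to -3.89 without 16IC 3, and that of Tpm2 falls to -0.44 without 16IC 1.

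Other genes of smooth muscle contraction were taken from a list fixed for this report, of which 24 of 26 had values and 18 were tested. 0 were called higher or lower by edgeR, 8 had an unadjusted p under 0.05, and the groups did not overlap in 8, of which 6 were higher in 16IC. The shares over all tested genes were 22.7% at that p, 31.4% without overlap and 17.2% higher in 16IC without overlap. The median log2 fold change was 0.62. Desmin (Des), the muscle intermediate filament, had at most 4 counts in a line. Lmod1, leiomodin, which nucleates smooth muscle actin, had 5.30, 13.8 and 41.4 CPM in 16IC 1 to 3 and 0.0601 to 0.684 CPM in EIC (log2 fold change 5.70, SE 1.12, edgeR adjusted p = 0.0590). Its EIC lines had 7, 1 and 11 counts, too few to pass the filter on low counts without the 16IC lines. Mcam, a cell adhesion molecule of vascular smooth muscle, passed the filter on low counts through the 16IC lines alone. It had 5.66, 2.02 and 12.8 CPM in 16IC and 0.171 to 0.421 CPM in EIC (edgeR adjusted p = 0.0525). Both were highest in 16IC 3, the line that was also highest for 8 of the 18 tested genes (44.4%), against 25.5% of all tested genes. Pdlim7, a scaffold of actin fibres, had 98.0 to 254 CPM in 16IC and 55.3 to 86.1 CPM in EIC (edgeR adjusted p = 0.107). Csrp2, a LIM protein of smooth muscle, had 0.649 to 1.20 CPM in 16IC and 2.35 to 2.74 CPM in EIC (edgeR adjusted p = 0.111). EdgeR called Lmod1, Mcam and Pdlim7 without 16IC 3 (adjusted p = 0.0336, 0.0276 and 0.0171), among 1913 of all 14262 tested genes.

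Tns1, the adhesion protein tensin, named after its values were seen, shared part of the line pattern of Mylk. The highest line was 16IC 3 for Tns1 and EIC 3 for Mylk. Over the 6 lines, 19 of 13693 genes compared had a Pearson r above 0.99 with Mylk. It had 555, 77.7 and 432 CPM in the EIC lines and 29.2, 54.2 and 949.6 CPM in the 16IC lines. As in Mylk, EIC 2 was the lowest EIC line and 16IC 3 lay far above 16IC 1 and 16IC 2. Its log2 fold change was -0.04, which edgeR did not call (adjusted p = 0.989). Leaving out 16IC 3 gave -3.09, also without an edgeR call (adjusted p = 0.0859), and the sign turned without EIC 1, EIC 3, 16IC 1 or 16IC 2 (0.10 to 0.50).

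Upstream of the contractile genes, the repressor Klf4 fell in 16IC, while the groups overlapped in serum response factor itself. Of 12 tested genes of the serum response factor and myocardin list edgeR called 0 higher and 1 lower, beside 1.25% of all tested genes called higher and 1.20% called lower, and the median log2 fold change was -0.29. The called gene was Klf4, known as a repressor of smooth muscle genes. Klf4 had 126, 86.0 and 114 CPM in EIC 1 to 3 and 11.7, 18.1 and 5.19 CPM in 16IC 1 to 3 (log2 fold change -3.21, SE 0.48, edgeR adjusted p = 0.0390). Every 16IC line lay below every EIC line, but the call was lost without any 1 line other than 16IC 3 and when the mean of 16IC 1 and 16IC 2 stood for both (edgeR adjusted p = 0.0545 to 0.169). Srf, chosen after its values were seen, had 65.5 to 81.4 CPM in EIC and 62.0 to 82.6 CPM in 16IC (log2 fold change -0.05, SE 0.18), and its sign turned without EIC 2 or without 16IC 2. Mkl2, a myocardin-related coactivator, had 32.8 to 36.6 CPM in EIC and 52.1 to 77.8 CPM in 16IC (edgeR adjusted p = 0.0695).

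Markers of basal epithelium were looked at beside Trp63. Of 20 listed genes, 9 of them also on the list of p63 targets, 14 were tested. 0 were called higher or lower by edgeR, 4 had an unadjusted p under 0.05, and the groups did not overlap in 6, of which 5 were higher in 16IC. These counts stand beside 22.7%, 31.4% and 17.2% of all tested genes. The median log2 fold change was 1.03. The defining basal keratin Krt5 had 2 counts over the 6 lines, and Krt15 at most 5 in a line. Krt14, its partner keratin, had 13.1, 1.29 and 1.10 CPM in 16IC 1 to 3 and 0.0570 to 0.120 CPM in EIC (edgeR adjusted p = 0.0748), so that it was found mainly in 16IC 1 and not in the line with Trp63. Krt14 passed the filter on low counts through the 16IC lines alone. Krt17, which like Oxtr was chosen after its values were seen, had 53 counts in 16IC 1 and at most 1 in any other line. Egfr had 39.0, 42.5 and 9.79 CPM in 16IC and 3.31 to 4.73 CPM in EIC (edgeR adjusted p = 0.0621). Perp, a desmosome protein controlled by p63, had 400 to 484 CPM in 16IC and 181 to 321 CPM in EIC (edgeR adjusted p = 0.117). Oxtr, the oxytocin receptor through which myoepithelium is made to contract, was not tested and had 46.4 CPM in 16IC 3, 10.3 CPM in EIC 2 and at most 0.311 CPM elsewhere.

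**Figure D5:**
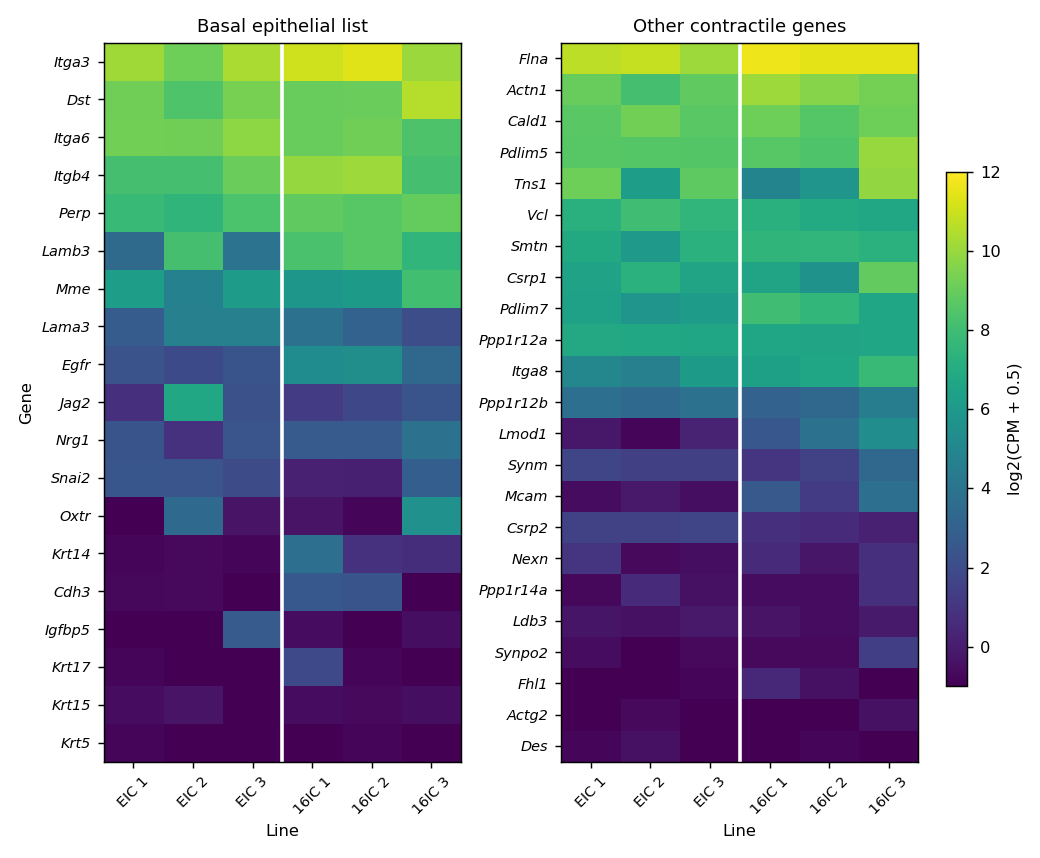
Levels of 19 basal epithelial genes and 23 other contractile genes as log2(CPM + 0.5), with 1 column for each line, a white line between the groups, and genes sorted by mean level. Among the EIC lines, Jag2 and Lamb3 are highest in EIC 2, while Itga3, Dst and Perp are lowest there. Krt14 is highest in 16IC 1, and Krt5 and Des are dark in all 6 lines.

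Markers of other cell types were summed per line for comparison. Luminal markers, with rows for all 12 listed genes, summed to 2394 to 3318 CPM in EIC and to 8580, 8685 and 1625 CPM in 16IC 1 to 3. Krt8 and Krt18, chosen after their values were seen, gave 1349 to 1929 and 661 to 1194 CPM of the EIC sums. Krt19 was lower in 16IC, with 7.70 to 198 CPM in EIC and at most 0.649 CPM in 16IC. Of the 11 tested, 7 had an unadjusted p under 0.05, and the groups did not overlap in 6. Over all tested genes the shares were 22.7% and 31.4%. Cldn7, with at most 9 counts in an EIC line, passed the filter through the 16IC lines alone, so the 7 and the 6 support nothing further. EdgeR called 1 of the 11 tested, Elf5, higher in 16IC, against 1.25% of all tested genes (43 to 1030 counts a line against at most 2 in EIC, adjusted p = 0.0462). Elf5 passed the filter on low counts through the 16IC lines alone, so its call supports nothing further. That call was lost without any 1 line other than 16IC 3, with 16IC 1 and 16IC 2 averaged, and in limma-voom (adjusted p = 0.0857 to 0.183). Fibroblast markers, 6 of 9 with rows, summed to 7.94 to 106 CPM in EIC and 11.3 to 30.4 CPM in 16IC. Pdgfra gave 87.8 and 99.97 CPM of these sums in EIC 1 and EIC 3. Of the 4 tested, 2 had a positive log2 fold change and 2 a negative one, and edgeR called 0. The positive ones were Col1a1 (0.513 to 1.99 CPM in EIC, 3.13 to 4.99 in 16IC) and Postn (0 to 1.06 and 2.39 to 8.04 CPM). Vascular mural markers, 6 of 7, summed to 8.67 to 30.3 and 19.1 to 114 CPM, and their defining gene Rgs5 had at most 1 count in a line. Endothelial markers, 4 of 5, and leukocyte markers, 4 of 6, summed to at most 3.82 and 5.08 CPM in a line. Of their defining genes, Cdh5 had at most 1 count and Ptprc at most 5 counts in a line. The highest sums came mostly from other genes, named after their values were seen. Csf1r gave 3.73 and 4.65 CPM of the leukocyte sums in 16IC 1 and 16IC 2, and Kdr 3.76 CPM of the endothelial sum in EIC 1. Notch3 gave 85.4 and 111 CPM of the mural sums in 16IC 1 and 16IC 2. The part of these cell types in the values of the 10 genes was not tested.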

How the data were processed

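Total RNA was isolated on Qiagen columns and sequenced from NEBNext Ultra II libraries, per the labels' protocols. The tools in the submitters' processing notes are STAR, Trimmomatic, HTSeq, limma and edgeR, on GRCm38 (mm10), without roles, versions or strandedness. The deposited table holds the authors' whole read counts per gene and library. It also holds the authors' FPKM, which equals the count over the gene length and 1 library size, and their signal, the count over 1 size factor per library, which was not used. The authors' log2 fold change and p-value per gene, of unstated tool, were deposited too.

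From the counts, genes were filtered with filterByExpr (minimum count 10), scaled by TMM and tested with edgeR 4.0.16 (R 4.3.3), quasi-likelihood, 16IC against EIC, no covariate, adjusted p under 0.05 over all 13698 genes. Intervals of 95% use the fitted SE, and those of counts cover counting error only, as no source used here names molecular identifiers. Log2 levels in correlations use log2(CPM + 0.5). Alternatives were DESeq2 1.42.0, limma 3.58.1 voom, other size factors, no filter, the robust fit, leaving out each line and averaging 16IC 1 with 16IC 2. The edgeR step was tested on simulated data. The text names all 10 genes, up to 4 genes of smallest p from each list, the 3 genes most like Trp63 and defining marker genes at or near 0. The paralogs of the 10 genes stand beside their family. Other genes are said to be chosen after their values were seen. The genes and lists were chosen with earlier results of these data known. Results for some listed genes are not reported here.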

Additional observations from a re-analysis of the deposited data

How the results depend on the processing

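The number of genes called over the whole table was 335 and depended on the method and on single lines. It was 223 with no filter on low counts, 2098 with DESeq2 and 0 with 16IC 1 and 16IC 2 averaged, where 2257 had an unadjusted p under 0.05. Leaving out 1 line gave 0 to 1913. The number was 0 without EIC 1, EIC 3 or 16IC 2 (unadjusted 2627, 2341 and 2251) and 5 without 16IC 1. Without 16IC 3 it was 1913 of 14262 tested genes. Of the 10 genes, 0 were called under each alternative that kept all lines or averaged 2 of them, and leaving out 1 line gave 0 to 1, the 1 being Mylk without 16IC 3. The median log2 fold change of the 5 tested genes was 0.25 to 1.08 with 1 line left out. Tagln, Cnn2, Tpm1 and Mylk kept their direction under all 12 alternatives. Tpm2 turned to -0.28 in limma-voom and ran from -0.44 to 1.37 with 1 line left out. Jag2 ran from -4.15 to 0.26, Srf from -0.15 to 0.053 and Tns1 from -3.09 to 0.50 with 1 line left out, and Tns1 was 0.48 with 16IC 1 and 16IC 2 averaged. The cause was not tested. Of 23 other genes fitted by name, 13 were called without 16IC 3 and 15 with DESeq2 that edgeR did not call over all lines. No paired analysis was possible because the titles carry line names and no replicate numbers that EIC and 16IC share. Depth limits Acta2, Cnn1, Myh11 and Myl9, where 3 counts in a library stand for 0.171 to 0.195 CPM.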

Other observations

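The list of skeletal and heart muscle genes held 1 gene with an appreciable level, Tnnt2, which encodes the troponin T of heart muscle. It had 29.2, 34.5 and 9.14 CPM in EIC 1 to 3 and 324, 414 and 114 CPM in 16IC 1 to 3, so that every 16IC line lay above every EIC line. Its log2 fold change of 3.55 (SE 0.69) was not called by edgeR (adjusted p = 0.0580). Over the alternatives the adjusted p ran from 1.56e-06 to 0.192. The other genes of that list with rows, Acta1 and Tnnt1, had at most 3 counts in a line. Notch3, a receptor of vascular smooth muscle on the mural list, had 1418 and 1815 counts in 16IC 1 and 16IC 2, 6 counts in 16IC 3 and 98 to 422 counts in EIC.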
